A study of Mus musculus with 8 samples.

Results

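The Notch pathway set described here holds 10 mouse genes: the receptors Notch1, Notch2 and Notch3, the ligands Dll1, Dll3 and Jag1, the receptor glycosyltransferase Lfng, and the transcriptional regulators Hes1, Hes5 and Hes6. They were chosen by gene symbol, with no measured value in the rule, but with earlier results of these data known. All 10 were present among the 13607 genes of the count table. RNA was sequenced from cultured C57BL/6J astrocytes with floxed alleles (Yapf/f;Tazf/f), in 8 libraries that formed 4 groups of 2. Yap1 encodes YAP and Wwtr1 encodes TAZ, a pair of transcriptional co-activators.

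All groups carried the floxed alleles and grew in DMEM-F12 medium with EGF and bFGF, each at 20 ng/ml. The control group was untransformed astrocytes without doxycycline. HER2CA day 15 astrocytes received lentiviral HER2CA, a doxycycline-inducible form of the receptor tyrosine kinase HER2, with rtTA, the doxycycline-dependent activator, and CreERT2, a tamoxifen-dependent Cre recombinase; they were collected after 15 days with doxycycline. The 4OH-TAM-labelled libraries had the same constructs and doxycycline, with 1 µM 4-hydroxytamoxifen for 15 days to delete the floxed alleles. Gliomaspheres were HER2CA cells grown in suspension with doxycycline, at passage 1, and collected 3 weeks after the start. The labels of HER2CA day 15 and of gliomaspheres name DMSO, yet the protocol describes cells without 4-hydroxytamoxifen as untreated, so vehicle use is uncertain. The sources used here do not say whether the controls carried any construct. No label says that replicates A and B were separate cultures, so the p-values reflect differences between these particular libraries, whose spread may be technical.

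Notch receptors sit in the cell membrane and are activated by Delta and Jagged ligands on neighbouring cells. Cleavage by gamma-secretase then frees the receptor's intracellular domain, which joins the DNA-binding protein RBPJ and switches on genes such as Hes1 and Hes5. Hes proteins repress proneural factors, and in the developing and adult brain the pathway is known for keeping neural progenitors undifferentiated and for promoting astrocyte fate.

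Total counts ranged from 15517708 to 28231426 per library. Gliomaspheres B stood apart: Rn45s, a ribosomal RNA gene, took 36.1% of its counts, against 0.984% to 2.92% in the other 7 libraries. Of the targeted genes, Yap1 measured 101 and 103 CPM (read counts relative to library size, scaled by the trimmed mean of M-values) in HER2CA day 15 and 107 and 103 in the 4OH-TAM-labelled libraries, with no difference past the test (log2 fold change 0.04, edgeR quasi-likelihood adjusted p = 0.569). Wwtr1 fell from 194 and 210 CPM to 123 and 122 (log2 fold change -0.73, adjusted p = 1.25e-07 by edgeR). Gene-level counts do not show whether the floxed exons were lost, so the group is named here by its label. Upper-quartile scaling moved Yap1 to a log2 fold change of 0.25 (edgeR adjusted p = 0.00352), and no scaling moved it to 0.17 (adjusted p = 0.0366). The 10 astrocyte markers checked were all measured, and summed to 5720 to 6680 CPM in controls, 2650 to 2730 in HER2CA day 15, 11600 to 12100 in the 4OH-TAM-labelled libraries and 11000 to 11400 in gliomaspheres. S100b was the lowest of them in HER2CA day 15, at 0.275 and 0.207 CPM. Only Sox9 had a higher mean there than in controls (318 against 290 CPM). The 8 oligodendrocyte lineage markers measured, of 9 listed, summed to 468 to 505, 110 to 119, 873 to 917 and 2980 to 3290 CPM in the same order of groups. The 9 microglia and macrophage markers measured, of 10 listed, summed to 143 to 153, 159 to 173, 315 to 338 and 52.9 to 54.5 CPM. Cd68 carried the higher sum in HER2CA day 15 (mean 129 CPM, 88.5 in controls), while the other 8 had lower means there than in controls, such as Ctss at 9.05 against 18.4. The 5 ependymal markers measured, of 6 listed, summed to 219 to 228, 87.7 to 87.8, 258 to 259 and 97.9 to 102 CPM, and the 5 neuronal ones, of 8 listed, to 69.5 to 69.7, 34.8 to 38.8, 64.7 to 69.2 and 23 to 25.1. The astrocyte, oligodendrocyte lineage, ependymal and neuronal sums were thus lower in HER2CA day 15 than in controls and the 4OH-TAM-labelled libraries. Most of the 10 genes were too, and the part of these sums in the results was not tested. Foxj1 carried most of the ependymal sum, with means of 202 CPM in controls and 72.3 in HER2CA day 15. Stmn2 carried most of the neuronal sum in the same groups, at 47.8 and 33.8. In bulk RNA, fewer cells of a type and less RNA per cell cannot be told apart.

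**Figure D1:**
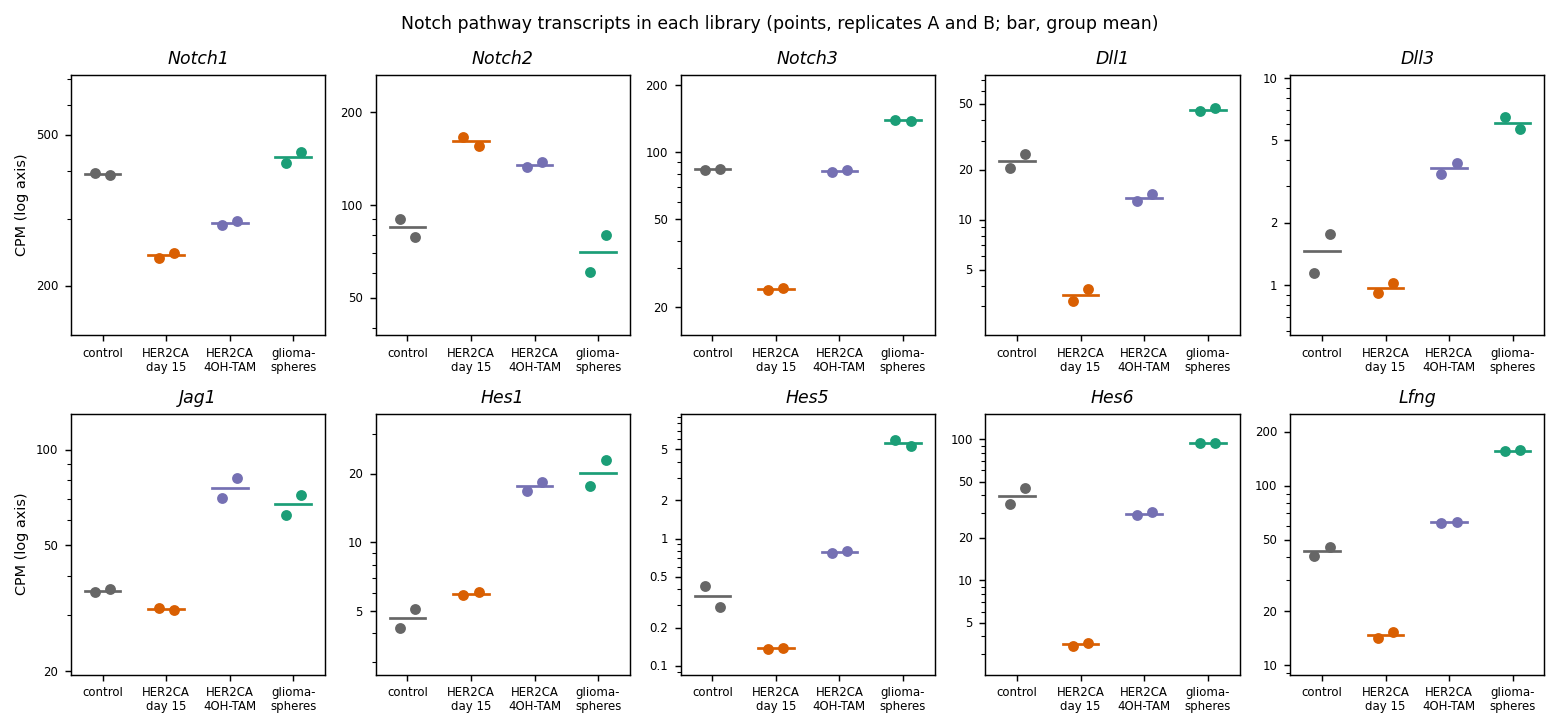
Level of each of the 10 genes in each library, in CPM on a log axis that differs between panels; points are replicates A and B and bars are group means. Gliomaspheres have the highest mean for 8 genes and HER2CA day 15 the lowest for 8. Notch2 is lowest in gliomaspheres and Hes1 in controls. The gliomasphere mean was not separated from the next by the edgeR test for Notch1 and Hes1. The lowest mean was not separated for Dll3, Jag1 and Hes1. Hes5, among the 8 highest, entered the table through gliomaspheres. The share of all genes with such ranks was not computed.

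Notch1 lies on chr2:26457903-26516663 of GRCm38 and was the most abundant of the receptors per kilobase of exon in every group. It measured 396 and 391 CPM in controls, 237 and 244 in HER2CA day 15, 289 and 296 in the 4OH-TAM-labelled libraries, and 421 and 450 in gliomaspheres. No groups overlapped, and HER2CA day 15 was the lowest. Against controls, Notch1 was lower in HER2CA day 15 (log2 fold change -0.71, SE 0.0706, adjusted p = 2.53e-07 by edgeR's quasi-likelihood test). It was higher in the 4OH-TAM-labelled libraries than in HER2CA day 15 (log2 fold change 0.28, edgeR adjusted p = 0.00191) and was below controls there (log2 fold change -0.43, adjusted p = 0.000105). The gliomasphere and control levels did not differ past the test (log2 fold change 0.15, edgeR adjusted p = 0.0823), but did when gliomaspheres A was left out (0.19, adjusted p = 0.0365).

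Notch2 (chr3:98013527-98150361) ran the other way from the other receptors. It measured 90.4 and 79 CPM in controls, 166 and 156 in HER2CA day 15, 133 and 138 in the 4OH-TAM-labelled libraries, and 60.5 and 80 in gliomaspheres. HER2CA day 15 was thus the highest group, and the control and gliomasphere libraries overlapped. Notch2 rose in HER2CA day 15 against controls (log2 fold change 0.93, SE 0.103, edgeR adjusted p = 8.95e-07). It was also higher than controls in the 4OH-TAM-labelled libraries (log2 fold change 0.68, edgeR adjusted p = 5.28e-05). Gliomaspheres were below HER2CA day 15 (log2 fold change -1.22, edgeR adjusted p = 5.02e-08) and below the 4OH-TAM-labelled libraries (-0.97, adjusted p = 1.75e-06). The remaining differences were small: -0.25 in the 4OH-TAM-labelled libraries against HER2CA day 15 (edgeR adjusted p = 0.0352) and -0.29 in gliomaspheres against controls (adjusted p = 0.028). The first lost its call when any of its 4 libraries was left out (edgeR adjusted p = 0.0607 to 0.179), and the other without control A (0.222) or gliomaspheres A (0.481). Notch2 overlaps the gene model Gm42820 on its own strand, so reads of these genes may not be separable.

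Notch3 (chr17:32120820-32166852) is a receptor also known from mural cells of vessels. It measured 83.4 and 84.3 CPM in controls, 24 and 24.6 in HER2CA day 15, 81.8 and 83 in the 4OH-TAM-labelled libraries, and 140 and 139 in gliomaspheres. HER2CA day 15 stood far below every other library. The fall against controls was -1.79 on the log2 scale (SE 0.0721, edgeR adjusted p = 1.35e-11), and the level in the 4OH-TAM-labelled libraries was higher than in HER2CA day 15 by 1.76 (SE 0.072, adjusted p = 1.3e-11). The 4OH-TAM-labelled libraries and the controls did not differ past the test (log2 fold change -0.02, edgeR adjusted p = 0.763). Gliomaspheres were above controls by 0.74 on the log2 scale (edgeR adjusted p = 1.77e-07). The 5 mural and fibroblast markers measured, of 8 listed, summed to 224 to 260 CPM in controls, 260 to 263 in HER2CA day 15, 149 to 188 in the 4OH-TAM-labelled libraries and 32.3 to 36.7 in gliomaspheres, where Notch3 was highest. Acta2 made up most of that sum, with means of 193, 238, 58.6 and 19.5 CPM. The other 4 markers had their highest means in the 4OH-TAM-labelled libraries and lower means in HER2CA day 15 than in controls; Pdgfrb averaged 5.31 CPM in controls, 2.39 in HER2CA day 15, 26.5 in the 4OH-TAM-labelled libraries and 1.78 in gliomaspheres. Their part in the Notch3 level was not tested.

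Per kilobase of exon, the summed receptor level (Notch1 to Notch4) was 46.6 and 45.3 CPM per kb in controls, 35.1 and 34.7 in HER2CA day 15, 42.9 and 44 in the 4OH-TAM-labelled libraries, and 52.8 and 56.5 in gliomaspheres. The make-up of that sum moved more than its size. Notch2 made up a mean of 17.1% of it in controls, 42.8% in HER2CA day 15, 29% in the 4OH-TAM-labelled libraries and 11.8% in gliomaspheres. Notch3 made up 22.6%, 8.6%, 23.5% and 31.6% in the same order. The mean share of Notch1 stayed between 47.3% and 60.2% over the groups. That of Notch4, named after its values were seen, stayed at or below 0.435%.

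**Figure D2:**
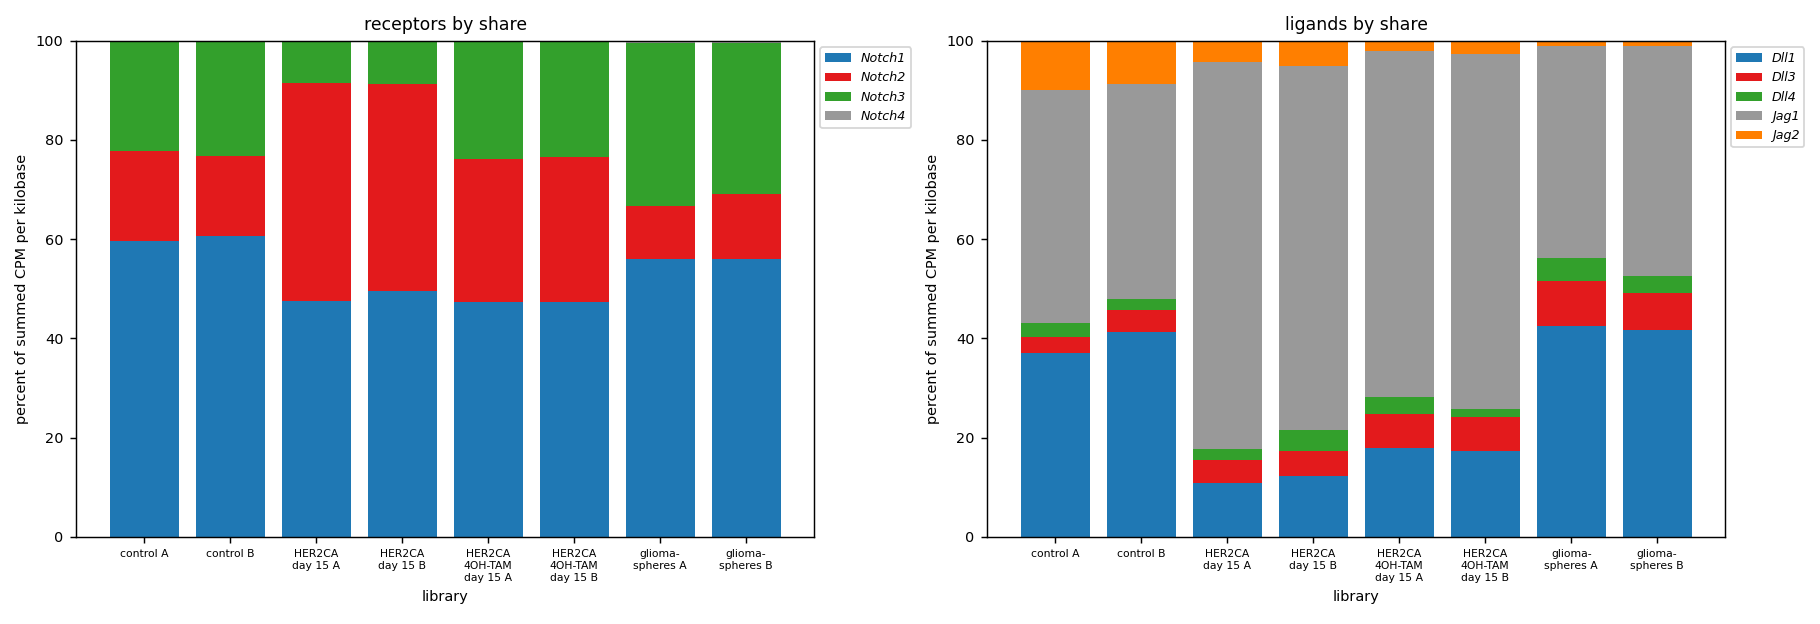
Share of each receptor (left) and each Delta or Jagged ligand (right) in the summed CPM per kilobase of exon of its class, in percent, for each of the 8 libraries. The Notch2 share is largest in HER2CA day 15 (mean 42.8%), where the Dll1 share is smallest (11.6%).

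Dll1 (chr17:15367354-15376872), a Delta ligand that activates receptors on adjacent cells, measured 20.4 and 25 CPM in controls, 3.21 and 3.79 in HER2CA day 15, 12.9 and 14.2 in the 4OH-TAM-labelled libraries, and 45.1 and 46.9 in gliomaspheres. The 4 groups were fully separated, in the order gliomaspheres, controls, 4OH-TAM, HER2CA day 15. Dll1 fell by 2.68 on the log2 scale in HER2CA day 15 against controls (SE 0.139, edgeR adjusted p = 1.76e-10). It was higher in the 4OH-TAM-labelled libraries than in HER2CA day 15 (log2 fold change 1.94, SE 0.144, edgeR adjusted p = 8.7e-09). Gliomaspheres exceeded HER2CA day 15 by 3.70 on the log2 scale (edgeR adjusted p = 2.14e-12) and controls by 1.02 (adjusted p = 1.1e-06).

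Dll3 (chr7:28293553-28302238), a divergent Delta protein known to dampen Notch signalling within the cell that makes it, was the rarest ligand of the set. It measured 1.15 and 1.77 CPM in controls, 0.917 and 1.03 in HER2CA day 15, 3.45 and 3.9 in the 4OH-TAM-labelled libraries, and 6.5 and 5.67 in gliomaspheres. The 2 HER2CA day 15 libraries were the lowest and the gliomaspheres the highest, with no overlap between groups. Dll3 was higher in the 4OH-TAM-labelled libraries than in HER2CA day 15 (log2 fold change 1.90, edgeR adjusted p = 2.66e-06) and than in controls (1.34, adjusted p = 0.000107). The difference between HER2CA day 15 and controls did not pass (log2 fold change -0.56, edgeR adjusted p = 0.081), but did without control A (-0.86, adjusted p = 0.0207). Gliomaspheres exceeded the 4OH-TAM-labelled libraries by 0.75 (edgeR adjusted p = 0.00264), a call lost without gliomaspheres A (adjusted p = 0.0574).

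Jag1 (chr2:137081456-137116644), a Jagged ligand, measured 35.6 and 36.2 CPM in controls, 31.7 and 31.2 in HER2CA day 15, 70.2 and 81.2 in the 4OH-TAM-labelled libraries, and 62.4 and 72.1 in gliomaspheres. The last 2 groups overlapped and lay above all other libraries. Jag1 was higher in the 4OH-TAM-labelled libraries than in HER2CA day 15 (log2 fold change 1.27, SE 0.0917, edgeR adjusted p = 6.14e-09) and than in controls (1.08, adjusted p = 1.52e-07). Its level in HER2CA day 15 did not differ from controls past the test (log2 fold change -0.19, edgeR adjusted p = 0.0764), but did without gliomaspheres A (adjusted p = 0.0394) or gliomaspheres B (0.0143). It also passed as lower under upper-quartile scaling (-0.35, edgeR adjusted p = 0.0033), no scaling (0.018), the filter of 5 CPM in 2 libraries (0.0326) and a fit of only the 2 groups compared (0.0307). Gliomaspheres and the 4OH-TAM-labelled libraries did not differ past the test (log2 fold change -0.18, edgeR adjusted p = 0.0952), but did without 4OH-TAM A (-0.28, adjusted p = 0.0392) or gliomaspheres B (-0.30, adjusted p = 0.0102).

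Summed over Dll1, Dll3, Dll4, Jag1 and Jag2, ligand transcripts reached 13 and 14.3 CPM per kb in controls, 6.97 and 7.29 in HER2CA day 15, 17.3 and 19.5 in the 4OH-TAM-labelled libraries, and 25.1 and 26.7 in gliomaspheres. Dll1 made up a mean of 39.2% of this sum in controls, 11.6% in HER2CA day 15, 17.5% in the 4OH-TAM-labelled libraries and 42.1% in gliomaspheres. Jag1 made up 45.2%, 75.7%, 70.6% and 44.5%. The day 15 groups thus had mostly Jag1, and controls and gliomaspheres had Dll1 and Jag1 in similar shares.

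Lfng (chr5:140607320-140615545) encodes Lunatic fringe, which adds N-acetylglucosamine to Notch receptors and favours their response to Delta over Jagged ligands. The stretches upstream of Lfng and Hes5 are shown because, of the genes of the set with an entry in the promoter table, only they held the core letters of the RBPJ motif, TGGGAA, on either strand. RefSeq promoter windows (GRCm38.p6, 250 bases before to 50 after the start site) were found for 9 of the 10 genes, as 11 windows. The motif was in the windows of 2 genes, against 25.6% of all 32851 windows. Hes1 had no entry. A match is a description of letters, not of binding. The 250 upstream bases follow, 5′ to 3′ on the plus strand, with matches in capitals; TTCCCA is the motif on the minus strand.

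Hes5: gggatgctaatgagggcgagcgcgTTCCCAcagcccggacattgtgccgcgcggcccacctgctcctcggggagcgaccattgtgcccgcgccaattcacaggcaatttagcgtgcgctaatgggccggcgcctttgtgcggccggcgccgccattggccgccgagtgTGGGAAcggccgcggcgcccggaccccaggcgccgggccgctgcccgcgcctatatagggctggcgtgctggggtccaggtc

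Lfng: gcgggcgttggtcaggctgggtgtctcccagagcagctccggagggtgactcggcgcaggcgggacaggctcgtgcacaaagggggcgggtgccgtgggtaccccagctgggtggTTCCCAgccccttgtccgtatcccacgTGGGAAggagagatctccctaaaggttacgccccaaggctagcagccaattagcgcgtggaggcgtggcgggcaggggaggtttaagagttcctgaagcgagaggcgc

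The Hes5 stretch is chr4:154960673-154960922 and its matches begin at -226 and -82 from the start site. The Lfng stretch is chr5:140607091-140607340 and its matches begin at -135 and -108.

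Lfng measured 40.7 and 45.6 CPM in controls, 14.2 and 15.3 in HER2CA day 15, 62.1 and 63 in the 4OH-TAM-labelled libraries, and 155 and 157 in gliomaspheres. The 4 groups were separated, with HER2CA day 15 lowest. Lfng fell by 1.54 on the log2 scale in HER2CA day 15 against controls (SE 0.0867, edgeR adjusted p = 4.26e-10). It was higher in the 4OH-TAM-labelled libraries than in HER2CA day 15 (log2 fold change 2.08, edgeR adjusted p = 1.39e-11) and, by less, than in controls (0.54, adjusted p = 3.39e-05). Gliomaspheres exceeded HER2CA day 15 by 3.40 (edgeR adjusted p = 6.04e-14). Per kilobase, Lfng was the most abundant gene of the set in gliomaspheres (62.3 CPM per kb), ahead of Hes6 (52.1) and Notch1 (30.6).

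Hes1 (chr16:30064384-30067796), a basic helix-loop-helix repressor switched on by Notch and by other signals, measured 4.22 and 5.11 CPM in controls, 5.87 and 6.04 in HER2CA day 15, 16.9 and 18.4 in the 4OH-TAM-labelled libraries, and 17.6 and 22.9 in gliomaspheres. The last 2 groups overlapped, and both lay above all controls and HER2CA day 15 libraries. Hes1 was higher in the 4OH-TAM-labelled libraries than in HER2CA day 15 (log2 fold change 1.57, SE 0.146, edgeR adjusted p = 1.07e-07) and than in controls (1.92, adjusted p = 7.43e-08). Gliomaspheres exceeded controls by 2.09 (edgeR adjusted p = 2.12e-08). HER2CA day 15 and controls did not differ past the test (log2 fold change 0.36, edgeR adjusted p = 0.0674), but did without control B (0.50, adjusted p = 0.0497) or gliomaspheres A (0.36, adjusted p = 0.0344). Gliomaspheres and the 4OH-TAM-labelled libraries did not differ past the test (0.16, edgeR adjusted p = 0.308), but did without gliomaspheres A (0.37, adjusted p = 0.0393).

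Hes5 (chr4:154960923-154962371), a repressor known as a close readout of Notch activity in neural progenitors, was rare outside gliomaspheres. Its counts were 11 and 7 in controls, 3 and 4 in HER2CA day 15, 20 and 21 in the 4OH-TAM-labelled libraries, and 142 and 53 in gliomaspheres. In CPM these were 0.422 and 0.288, 0.137 and 0.138, 0.766 and 0.803, and 5.95 and 5.36. Gliomaspheres lay far above every other library, and Hes5 reached 1 CPM before scaling in these 2 libraries only, so it entered the table through the group where it is high. Gliomaspheres exceeded controls by 3.98 on the log2 scale (SE 0.262, edgeR adjusted p = 4.99e-09) and the 4OH-TAM-labelled libraries by 2.86 (adjusted p = 4.21e-08). Because gliomaspheres brought Hes5 into the table, its tests against the other groups are no support for these differences. The 4OH-TAM-labelled libraries exceeded HER2CA day 15 by 2.46 (SE 0.447, edgeR adjusted p = 0.000122), on 41 against 7 summed counts (ratio 5.7, 95% interval 2.53 to 15, counting error only). The fall in HER2CA day 15 against controls (log2 fold change -1.34, edgeR adjusted p = 0.0336) rested on 7 against 18 counts, and was lost without control A (adjusted p = 0.205), HER2CA day 15 A (0.0838) or HER2CA day 15 B (0.116). The difference between the 4OH-TAM-labelled libraries and controls (1.12, edgeR adjusted p = 0.015) was lost without control B (0.102) or 4OH-TAM B (0.0622).

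Hes6 (chr1:91411483-91414038) encodes an atypical member of the family that is known to oppose Hes1. It measured 34.7 and 44.7 CPM in controls, 3.44 and 3.62 in HER2CA day 15, 28.9 and 30.3 in the 4OH-TAM-labelled libraries, and 94.3 and 94 in gliomaspheres. HER2CA day 15 was far below all other libraries, and the groups did not overlap. Hes6 was higher in the 4OH-TAM-labelled libraries than in HER2CA day 15 by 3.06 on the log2 scale (SE 0.137, edgeR adjusted p = 3.31e-11). Gliomaspheres exceeded HER2CA day 15 by 4.73 on that scale (edgeR adjusted p = 1.41e-13) and were 2.38-fold above controls (adjusted p = 4.64e-08). The 4OH-TAM-labelled libraries stayed below controls (log2 fold change -0.42, edgeR adjusted p = 0.0026), a call lost without control B (adjusted p = 0.0652). Dll1, Dll3, Hes5, Hes6 and Lfng were highest in gliomaspheres, as was the summed oligodendrocyte lineage level given above; its part in these differences was not tested.

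**Figure D3:**
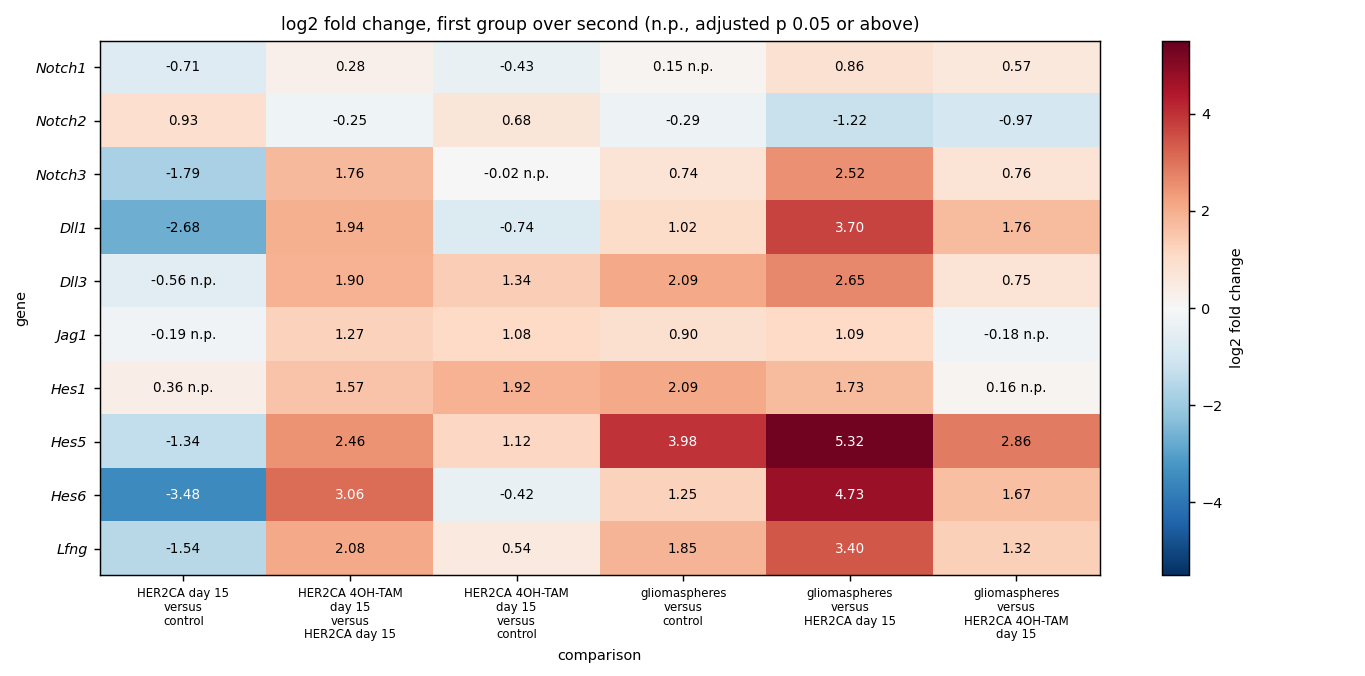
log2 fold change of each of the 10 genes (rows) in each of the 6 comparisons (columns), first group over second, with n.p. where the edgeR adjusted p was 0.05 or above. Notch2 is the exception in the comparison of gliomaspheres with HER2CA day 15, at -1.22 while the other 9 genes lie between 0.86 and 5.32. The 5.32 belongs to Hes5, which entered the table through gliomaspheres, and the next highest is Hes6 at 4.73.

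The first comparison sets HER2CA day 15 against controls, which had no doxycycline. It cannot separate HER2CA from doxycycline or from any difference in constructs or vehicle. In HER2CA day 15 against controls, 1 of the 10 genes was higher, where 37.3% of all genes were, and 6 were lower, where 38.4% were (edgeR adjusted p under 0.05; 75.8% of all genes in either direction). Notch2 was the one that rose, Dll3, Jag1 and Hes1 did not pass, and the others fell. At least 2-fold lower were 5 genes, against 19.5% of all genes, and 0 were 2-fold higher, against 10.1%. The median log2 fold change was -1.03 over the 10 genes and -0.017 over all genes. Without control B or gliomaspheres A, 2 genes were higher, and without control A 1 gene was at least 2-fold higher.

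The comparison of the 4OH-TAM-labelled libraries with HER2CA day 15 addresses what 4-hydroxytamoxifen treatment of the floxed cells changes during transformation. In it, 9 genes were higher, where 40.8% of all genes were, and 1, Notch2, was lower, where 39.7% were (80.5% in either direction). With any of the 4 libraries compared left out, 0 were lower. At least 2-fold higher were 8 genes, against 23.9% of all genes, and 0 were 2-fold lower, against 9.3%. The median was 1.83 over the 10 genes and 0.010 over all genes. Upper-quartile scaling shifted the all-gene median to 0.22 and the split of all calls from 50.7% to 61.5% higher. Against controls, the 4OH-TAM-labelled libraries had 6 genes higher (31% of all genes) and 3 lower (28.2%), namely Notch1, Dll1 and Hes6, beside 59.2% of all genes in either direction. In that comparison 4 genes were at least 2-fold higher (12.1% of all genes), Dll3, Jag1, Hes1 and Hes5, and 0 were 2-fold lower (2.95%). Without 4OH-TAM B, 2 genes were at least 2-fold higher and past the test.

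Gliomaspheres served as a further point of comparison. Against controls, HER2CA, doxycycline, suspension culture, passage, time and any difference in constructs or vehicle cannot be separated. Against the day 15 groups, suspension culture cannot be separated from passage or collection time. The comparison with the 4OH-TAM-labelled libraries adds 4-hydroxytamoxifen to these. Hes5, which entered the table through gliomaspheres, was counted as higher in each comparison below. Its part in those counts is no support for a difference. Against controls, 8 genes were higher (32.5% of all genes), 1, Notch2, was lower (32%), and Notch1 did not pass, beside 64.5% of all genes in either direction. Without control A or gliomaspheres A, 0 were lower. At least 2-fold higher were 6 genes, against 11.4% of all genes, and 0 were 2-fold lower, against 8.58%. Against HER2CA day 15, 9 genes were higher (38.4% of all genes) and Notch2 was lower (40.4%), beside 78.8% in either direction. At 2-fold or more, 8 were higher (22.1%) and Notch2 was lower (14.1%). Against the 4OH-TAM-labelled libraries, 7 were higher (31.3%), 1 was lower (29.7%), and Jag1 and Hes1 did not pass, beside 61% in either direction. Without 4OH-TAM A or gliomaspheres B, 2 were lower, and without gliomaspheres B 1 was at least 2-fold lower. In that comparison 4 genes, Dll1, Hes5, Hes6 and Lfng, were at least 2-fold higher (7.17% of all genes) and 0 were 2-fold lower (11.4%). With no scaling factors, its split of all calls moved from 51.3% to 40.5% higher. The 6 comparisons share libraries and so are not independent of each other.

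Of 86 other pathway genes listed, 74 were in the table. In HER2CA day 15 against controls 29 were higher and 25 lower, beside 37.3% and 38.4% of all genes. In the 4OH-TAM-labelled libraries against HER2CA day 15, 27 were higher and 26 lower, beside 40.8% and 39.7%. Gliomaspheres had 36 higher and 22 lower against controls, beside 32.5% and 32%. The medians over these 74 genes were 0.024, 0.026 and 0.22 on the log2 scale, beside -0.017, 0.010 and -0.0054 over all genes.

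Of the 9 other ligands measured, including non-canonical ones, 0 were higher and 7 lower in HER2CA day 15 against controls (37.3% and 38.4% of all genes). In the 4OH-TAM-labelled libraries against HER2CA day 15, 5 were higher and 1 lower (40.8% and 39.7%). Dner, a neuronal non-canonical ligand, had 87.5 and 97.9 CPM in controls, 23.6 and 25.8 in HER2CA day 15, 82.1 and 85.1 in the 4OH-TAM-labelled libraries, and 178 and 185 in gliomaspheres. Its group means had the order seen for Dll1 and Hes6, although its control and 4OH-TAM levels did not differ past the test (edgeR adjusted p = 0.105; 0.0406 without control A). Jag2, the other Jagged ligand, had 9.06 and 8.65 CPM in controls and lay between 1.97 and 3.44 in the other 6 libraries. Jag2 thus separated controls from all the rest, unlike Jag1.

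The 9 genes of the nuclear complex and its co-activators showed 6 higher and 1 lower in HER2CA day 15 against controls, where 37.3% and 38.4% of all genes were. In the 4OH-TAM-labelled libraries against HER2CA day 15, 2 were higher and 7 lower, beside 40.8% and 39.7% of all genes. Their Mastermind co-activators split. Maml1 had 23 and 22.5 CPM in controls, 57.2 and 57.6 in HER2CA day 15, and 26.9 to 31.3 in the other 4 libraries (edgeR adjusted p = 2.33e-09, HER2CA day 15 against controls). Maml2 had 105 and 103 CPM in controls and 50.4 and 52.9 in HER2CA day 15 (edgeR adjusted p = 5.06e-08). Maml3, named after its values were seen, was higher in HER2CA day 15 than in controls (edgeR adjusted p = 0.00725). Its means were 8.72 and 5.89 CPM. Of 14 co-repressors measured, 10 were higher and 1 lower in HER2CA day 15 against controls (37.3% and 38.4% of all genes). The one lower was Tle2, a Groucho-family partner of Hes proteins, which had 5.03 and 4.98 CPM in controls, 0.962 and 0.897 in HER2CA day 15, 13.7 in both 4OH-TAM-labelled libraries, and 39.4 and 36.3 in gliomaspheres.

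Among inhibitors and genes of receptor turnover, 5 of 16 were higher and 9 lower in HER2CA day 15 against controls (37.3% and 38.4% of all genes). Nrarp, a Notch target that feeds back on the receptor complex, had 2.11 and 2.35 CPM in controls, 0.458 and 0.448 in HER2CA day 15, 2.37 and 2.75 in the 4OH-TAM-labelled libraries, and 13.2 in both gliomasphere libraries. Its group means had the order of those of Hes5 and Lfng, although its 4OH-TAM and control levels did not differ past the test (edgeR adjusted p = 0.365). Nle1, the mouse Notchless gene, went the other way, at 19.9 and 20.3 CPM in HER2CA day 15 and 5.49 to 8.09 in the other 6 libraries.

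Of 6 other Hes and Hey genes, 3 were in the table, and they differed from each other. Heyl had 7.39 and 6.92 CPM in the 4OH-TAM-labelled libraries and 0.137 to 0.708 in the other 6 libraries (log2 fold change against HER2CA day 15 4.78, edgeR adjusted p = 5.49e-10, and 5.65 without HER2CA day 15 B). Heyl reached 1 CPM before scaling in the 2 libraries labelled 4OH-TAM only, so it entered the table through the group where it is high and its test is no support for that difference. Hey1, named after its values were seen, lay between 30.1 and 42.7 CPM in all 8 libraries. It was higher than in controls in HER2CA day 15 (log2 fold change 0.45, edgeR adjusted p = 0.000144) and in the 4OH-TAM-labelled libraries (0.46, adjusted p = 0.000232). The day 15 groups did not differ past the test (0.01, edgeR adjusted p = 0.938), but did under upper-quartile scaling (0.21, adjusted p = 0.0251). Hey2, likewise named after its values were seen, had 3 counts over both HER2CA day 15 libraries and 158 over those labelled 4OH-TAM (ratio 51.2, 95% interval 17.2 to 251, counting error only). Kdr, the one endothelial marker of 8 listed that was in the table, was 2.68 and 2.75 CPM in the 4OH-TAM-labelled libraries and at most 0.796 elsewhere. Like Heyl, Kdr reached 1 CPM before scaling in those 2 libraries only and entered the table through them. The astrocyte, ependymal, and microglia and macrophage sums were also highest in that group. So were the mural and fibroblast markers other than Acta2. The oligodendrocyte lineage, neuronal, and mural and fibroblast sums were not. The part of any of these in the Heyl level was not tested.

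**Figure D4:**
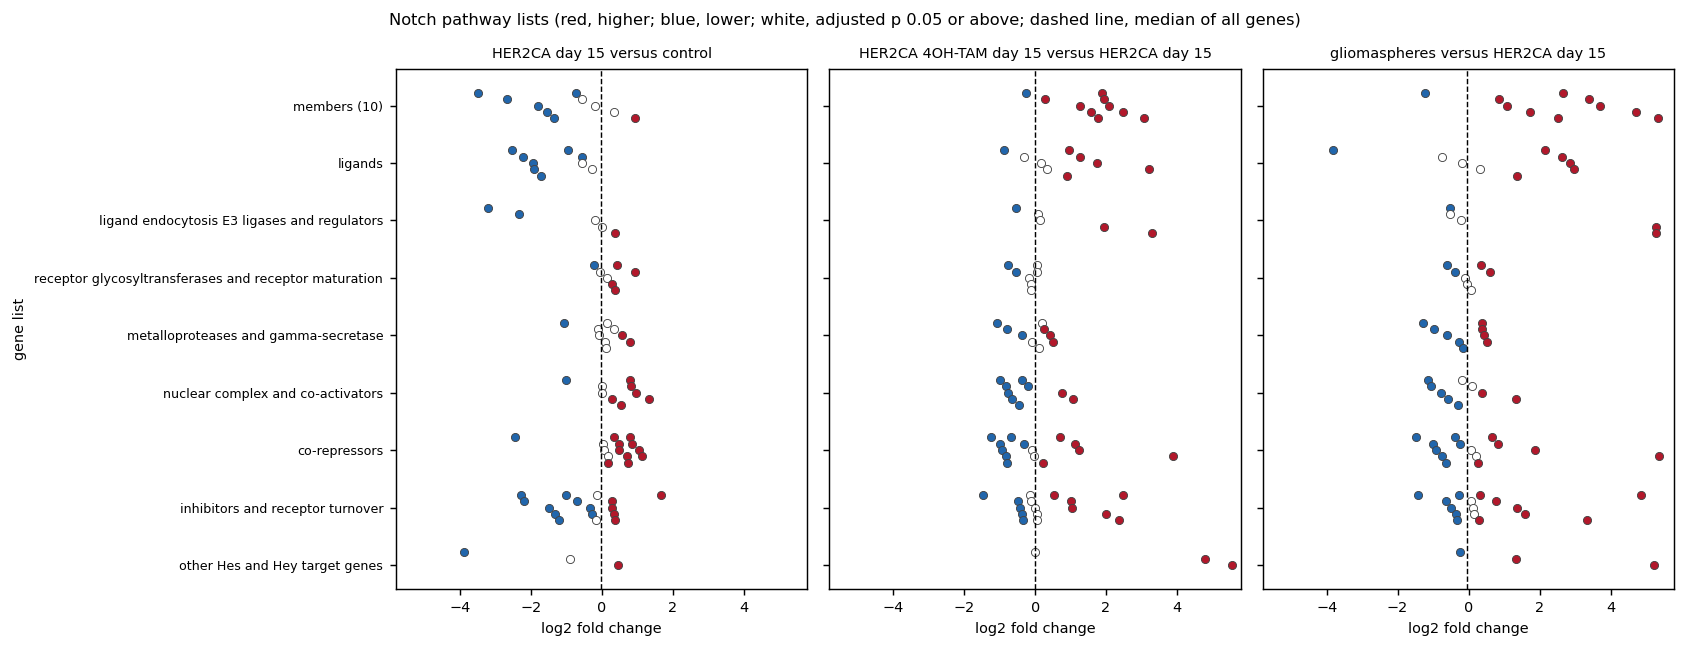
log2 fold change of each measured gene of the other pathway lists that had more than 1 gene measured, one row of points per list under a first row for the 10 genes, in HER2CA day 15 against control, 4OH-TAM against HER2CA day 15, and gliomaspheres against HER2CA day 15; red is higher, blue lower, white not past the test. The ligand list has 0 genes higher and 7 lower of 9 in HER2CA day 15 against controls, and the co-repressor list has 10 higher and 1 lower of 14.

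Likeness to each of the 10 genes was measured as the root mean square difference of log2 CPM, each gene centred on its own mean, over the 8 libraries. Within the set, whatever the level of a gene, Hes1 was nearest to Dll3 (0.4) and then Jag1 (0.442), Notch3 nearest to Lfng (0.42), and Dll1 nearest to Hes6 (0.438). Notch2 lay at 0.834 or more from every other gene of the set. Among genes with a mean of at least 5 CPM, the most alike included Inppl1 for Notch1 (0.0578), Fam83h for Notch2 (0.0996) and Vstm4 for Jag1 (0.0776). For the regulators they were Astn2 for Hes1 (0.124), Ckap2l for Hes5 (0.24) and Rnf122 for Hes6 (0.181), with B3galt1 for Dll3 (0.147) and Tril for Lfng (0.14). The median over the genes compared ran from 0.534 for Notch1 to 1.81 for Hes5.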

How the data were processed

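PolyA RNA of 8 libraries was prepared with a stranded kit, per the labels' protocols. Whole-number counts for each gene symbol were deposited, without normalisation by the authors judging from the values. The submitters' processing notes name FastQC, STAR 2.5.3a, featureCounts, mm10 and GRCm38. How counting treated strand is not stated there, and Notch1, Notch3, Dll1, Hes5 and Yap1 overlap genes on the opposite strand.

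The analysis used edgeR 4.0.16 in R 4.3.3 (TMM factors, quasi-likelihood, 1 mean per group, all 8 libraries, 4 residual degrees of freedom), with Benjamini-Hochberg adjustment over 13607 genes at 0.05. Every row reached 1.01 CPM before scaling in at least 2 libraries, so rarer genes were not analysed here. Each SE is the size of the log2 fold change over the square root of F. Chi-square per degree of freedom between replicates was 4.05 to 12.5 in the astrocyte groups. It was 723 in gliomaspheres, where Rn45s took 0.984% of counts in A and 36.1% in B. Replicates thus differed by more than counting error, and each library counted as 1 replicate. This does not show that A and B were separate cultures. The fit was tested on simulated data. Positions and exon lengths come from GENCODE M21.

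Named genes are the 10, Yap1, Wwtr1, the 3 most alike genes of each (at most the first is printed), markers a result turns on, and listed pathway genes past the test with a log2 fold change of at least 1 and 5 CPM in the higher group; not every gene taken is printed, and some are not reported here. Notch4, Hey1, Hey2, Maml3 and the use of Dll4 in sums fall outside. The genes and lists were chosen with earlier results of these data known. The 17 alternatives were other scalings and filters, DESeq2 1.42.0, a replicate block, fits of only the 2 groups compared, and leaving out each library.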

Additional observations from a re-analysis of the deposited data

How the results depend on the processing

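The 10 genes were recomputed under 17 alternatives: of 1007 values, 969 counted as unchanged, 21 lost the call and 17 gained it. Of the values called in the main fit, 0 reversed. A change of sign in a value not past the test in the main fit counted as unchanged. For the other pathway and targeted genes recomputed, 3598 of 3748 values counted as unchanged by the same rule, 113 lost the call and 37 gained it. Of their called values, 0 reversed.

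Counts of the 10 genes that moved were small. In the 4OH-TAM-labelled libraries against HER2CA day 15, the number lower went from 1 to 0 (Notch2) with relative log expression factors, upper-quartile factors, no scaling without Rn45s and Lars2, at least 5 CPM in 2 libraries, and DESeq2. Left-out libraries gave 0 to 1 there. In gliomaspheres against the 4OH-TAM-labelled libraries, the number lower went from 1 to 2 (Jag1 added) under upper-quartile scaling and under no scaling, and the number at least 2-fold lower from 0 to 1; left-out libraries gave 1 to 2 and 0 to 1. The 4OH-TAM-labelled libraries against controls had 2 genes, not 4, at least 2-fold higher with the 5 CPM filter, which removes low genes from the test, and 2 to 4 with a library left out. Gliomaspheres against controls had 0 lower, not 1, with only the 2 groups compared, and 0 to 1 with a library left out. HER2CA day 15 against controls had 8 genes lower, not 6, under upper-quartile scaling (Dll3 and Jag1 added) and 7 under no scaling. It had 1 to 2 higher and 0 to 1 at least 2-fold higher with a library left out. Beyond these constructions the cause was not tested.

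Replicate letters shared between groups showed little sign of pairing over all genes: the 6 correlations of their deviations ran from -0.0314 to 0.0554. Such correlations cannot detect a pairing that touches few genes. With the replicate letter as a block, the number higher in HER2CA day 15 against controls was 2, not 1 (Hes1, edgeR adjusted p = 0.045).

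With DESeq2, Hes5 lost its call in HER2CA day 15 against controls (DESeq2 adjusted p = 0.0747) and in the 4OH-TAM-labelled libraries against controls (0.0522). Depth limits Hes5 most, at 3 and 4 counts in HER2CA day 15.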
